A study of Mus musculus with 15 samples.

Results

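The 9 genes described here encode enzymes of the tricarboxylic acid (TCA) cycle in mitochondria, together with pyruvate carboxylase, which refills the cycle. They are Cs, Idh2, Idh3a, Ogdh, Suclg1, Suclg2, Fh1, Mdh2 and Pcx, and all 9 were found by symbol among the 23393 genes that each of 3 tables of kidney RNA-seq comparisons lists. The study compared kidneys of C57BL/6 mice carrying floxed alleles of Esrrg, the gene of the nuclear receptor ERRγ. Controls were Cre-negative littermates (ERRg fl/fl), and knockouts also carried the Sim1-Cre transgene (ERRg fl/fl;Sim1-Cre), so that every animal had the floxed alleles. By the labels, the males of 3 weeks comprised 2 controls with 3 knockouts, the females of that age 2 with 2, and the males of 3 months 3 with 3. Deletion is limited to the cells in which the transgene is active, and the labels do not say which kidney cells these are.

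In the TCA cycle, acetyl groups join oxaloacetate to form citrate and are oxidised step by step to carbon dioxide, and the electrons released feed the respiratory chain. Proximal tubule cells of the kidney rely on this route for the ATP that drives reabsorption, and they also draw on it for gluconeogenesis, in which pyruvate carboxylase supplies oxaloacetate. ERRγ belongs to a family of orphan receptors known to act on genes of mitochondrial oxidative metabolism. The stated purpose of the series is to find genes that the receptor regulates in mouse kidney.

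Each table gives a mean of normalised counts over its libraries, the log2 fold change, its standard error (SE) and a p-value adjusted over the genes tested. A gene was called when that adjusted p was under 0.05. Values per kidney were not used here, so the spread between animals enters only through the SE, and whether groups overlap cannot be read. The steps between the lowest means fitted 4, 4 and 5 libraries in the tables of 3-week males, 3-week females and 3-month males, against 5, 4 and 6 in the labels. The steps also gave the factor by which each library was scaled, between 0.63 and 1.38 over the 3 tables. Library totals cannot be read from them. The headers do not say which genotype is on top of the ratio, and a negative value is read throughout as lower in the knockout. Knockout here means the libraries labelled so, and the targeted gene itself goes against this reading on its face. Esrrg had log2 fold changes of 0.82 ± 0.20 (adjusted p = 0.000613) and 1.04 ± 0.17 (adjusted p = 1.7e-08) in males and females of 3 weeks in the authors' deposited tables. Its value in 3-month males was -0.87 ± 0.57, with no p-value, in the authors' deposited table, and whether counted reads lie in the deleted part is unknown. The reading was taken from the rise of kidney injury genes and the fall of mitochondrial and tubular genes, so the direction of the 9 genes is part of it and no independent evidence. That the 9 genes and the injury genes moved in opposite directions does not depend on it. The source names of the 3 knockout libraries at 3 months say female where titles and sex labels say male. In the table of 3-month males Xist had a mean count of 11.9 and Ddx3y 1477 in the authors' deposited table, against 23848 and 0.831 in that of females.

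All 9 transcripts were abundant in kidney. Levels between genes were compared per length, as CPM (the mean count relative to the table's total) divided by the length in kb of the longest protein-coding transcript in GENCODE M21. In 3-week males Mdh2, the mitochondrial malate dehydrogenase that regenerates oxaloacetate, was highest at 380 CPM per kb. Idh2, the NADP-dependent isocitrate dehydrogenase of mitochondria, followed at 333 and Suclg1, the α subunit of succinyl-CoA synthetase, at 300. Pcx was at 234, Ogdh, the decarboxylating subunit of the 2-oxoglutarate dehydrogenase complex, at 134, citrate synthase (Cs) at 124 and fumarase (Fh1) at 117. Suclg2, the GTP-specific β subunit of succinyl-CoA synthetase, was at 84.4, and Idh3a, the catalytic α subunit of the NAD-dependent isocitrate dehydrogenase, was lowest at 81.6. Even Idh3a exceeded 93.7% of the tested genes in level per length. These are means over both genotypes, and no test was made between genes.

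**Figure D1:**
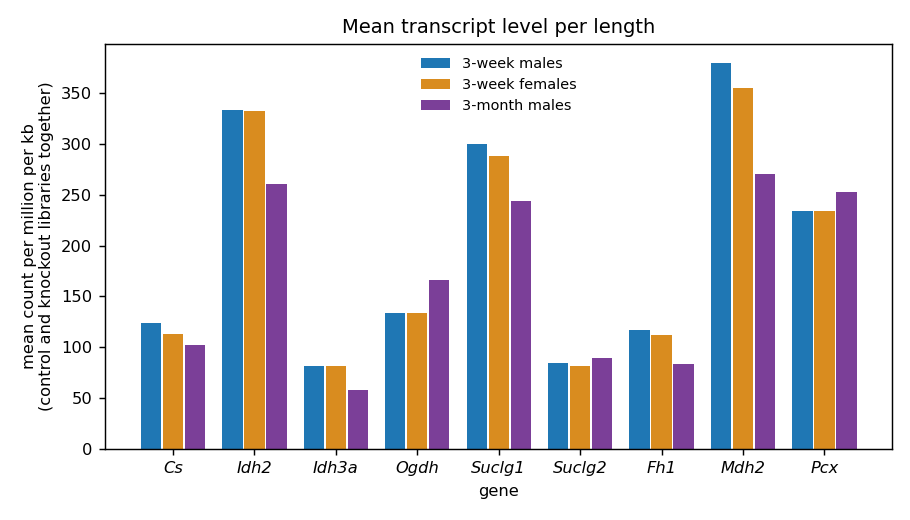
Mean level of each gene (x axis) in CPM per kb of transcript (y axis), over control and knockout libraries together, with 1 bar per table. Mdh2 and Idh2 are highest in every table, and Idh3a is lowest, at 81.6, 81.3 and 58.2.

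The genes lie apart in the genome, except for Suclg1 and Suclg2, which are both on chromosome 6. In GENCODE M21 on GRCm38, the same assembly as mm10, Cs spans chr10:128337734-128362479, Idh2 chr7:80094846-80115392, Idh3a chr9:54586334-54604661 and Ogdh chr11:6291633-6356642. Suclg1 spans chr6:73248382-73276911, Suclg2 chr6:95473009-95718800, Fh1 chr1:175600374-175625635, Mdh2 chr5:135778480-135790398 and Pcx chr19:4510472-4621752. Idh2, Suclg2 and Fh1 are on the minus strand and the others on the plus strand.

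Promoter sequence was looked at because the transcripts moved together in a study of a DNA-binding receptor. RefSeq windows of GRCm38.p6, from 250 bases before to 50 after each annotated start, were at hand for 8 of the 9 genes, in 14 windows. Exact matches on both strands were counted for the extended ERR motif TCAAGGTCA, its core AAGGTCA and hexamer AGGTCA, which are nested in it, and for the NRF1 core GCGCATGCG and the GABP core CCGGAAGTG. The extended ERR motif was in 0 of the 14 windows, against 0.423% of all 32851 windows, and the GABP core in 0, against 2.03%. The ERR core was in 1 window, against 4.72% of all windows, and the hexamer in 3, against 16.3%. The NRF1 core was in 2 overlapping windows of Ogdh, against 1.75% of all windows. The hexamer match of Pcx lay after its start at 4594319. A missing match says only that these letters are not in these windows. The matches of Ogdh and Fh1 are printed 5′ to 3′ on the strand of the gene, with capitals marking the ERR core, the hexamer or the NRF1 core (both ERR matches lie on the opposite strand). Stretches of Pcx, Suclg2 and Idh2 without a match are set beside them, as these genes had the lowest fold changes at 3 months or 3 weeks.
Ogdh, chr11:6292120-6292179, around its start at 6292170, ERR core: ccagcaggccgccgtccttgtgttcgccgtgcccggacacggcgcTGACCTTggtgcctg
Ogdh, chr11:6292513-6292557, before its start at 6292558, NRF1 core: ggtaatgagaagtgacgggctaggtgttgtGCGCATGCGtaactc
Fh1, chr1:175625791-175625850, before its start at 175625635, hexamer: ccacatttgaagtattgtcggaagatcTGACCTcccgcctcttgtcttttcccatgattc
Pcx, chr19:4510412-4510471, before its start at 4510472: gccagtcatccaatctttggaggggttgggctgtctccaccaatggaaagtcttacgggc
Suclg2, chr6:95718847-95718906, before its start at 95718846: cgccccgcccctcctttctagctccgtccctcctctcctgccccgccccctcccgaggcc
Idh2, chr7:80115393-80115452, before its start at 80115350: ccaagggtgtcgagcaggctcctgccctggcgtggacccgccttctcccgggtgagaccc

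At 3 weeks most of these enzymes had less transcript in the libraries labelled knockout, in both sexes. In males 7 of the 9 genes were called lower and none higher, where 8.52% of the 14657 tested genes were called lower, 8.81% higher and 17.3% either way. In females 8 were called lower and none higher, against 10.4% of 14146 lower, 8.29% higher and 18.7% either way. The median log2 fold change of the 9 genes was -0.73 in males and -0.68 in females, beside -0.0055 and 0.0086 over all tested genes. The members were picked with such results in view, so these counts describe the list and are no independent evidence about it.

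The steps at which carbon enters oxaloacetate and citrate differed in size on their point values. For Pcx, the biotin-dependent enzyme that carboxylates pyruvate to oxaloacetate, the values in the authors' deposited tables were -1.05 ± 0.20 (adjusted p = 6.88e-06) for males of 3 weeks and -0.84 ± 0.18 (adjusted p = 7.25e-05) for females. That corresponds to 48.3% of the control level in males (95% interval 36.6 to 63.6%) and 55.9% in females (43.7 to 71.6%). The deposited fold changes appear drawn towards no change (moderated), more tightly at 3 weeks than at 3 months, as described below. Percentages of control and their intervals, here and below, are those of the deposited values and not of an unmoderated ratio. How far these lie apart was not tested. Cs, which condenses acetyl-CoA with oxaloacetate, was at -0.33 ± 0.17 in males without passing the test (adjusted p = 0.198) and at -0.41 ± 0.13 (adjusted p = 0.0102) in females, in the authors' deposited tables. Pcx thus stood near 1 log2 unit below control, and Cs at 79.4% and 75.5% of the control level. The 95% intervals of Cs, 62.6 to 101% in males and 63.7 to 89.5% in females, overlapped those of Pcx. No test between Pcx and Cs was made.

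Both isocitrate dehydrogenases were lower, Idh2 by more than Idh3a on their point values. Idh2 had the lowest fold change of the 9 genes in both sexes at 3 weeks, -1.12 ± 0.16 (adjusted p = 4.74e-10) for males and -0.97 ± 0.09 (adjusted p = 3.33e-27) in females in the authors' deposited tables. Its level in the knockout was 46.0% of control in males (95% interval 36.8 to 57.4%) and 50.9% in females (45.3 to 57.2%). Only 1.79% of the tested genes in males and 2.18% in females had a lower fold change. Idh3a was at -0.51 ± 0.17 (adjusted p = 0.0213) in males and -0.44 ± 0.12 (adjusted p = 0.00241) in females in the authors' deposited tables. Both genes are measured in the same libraries, so a test between them needs values per library and was not made.

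From 2-oxoglutarate to succinate, Ogdh and both succinyl-CoA synthetase subunits moved by similar amounts. In the authors' deposited tables Ogdh was at -0.74 ± 0.17 (adjusted p = 0.000201) for males of 3 weeks and -0.76 ± 0.10 (adjusted p = 2.82e-11) for females. Suclg1, which is shared by the GTP-forming and ATP-forming enzymes, was at -0.74 ± 0.15 (adjusted p = 3.8e-05) and -0.73 ± 0.14 (adjusted p = 7.11e-06) in the authors' deposited tables. Suclg2 was at -0.73 ± 0.17 (adjusted p = 0.000438) and -0.59 ± 0.09 (adjusted p = 8.22e-09) in the authors' deposited tables. The 3 genes were thus at 59.1% to 66.4% of their control levels at 3 weeks.

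The last steps of the cycle split. Fh1, which hydrates fumarate to malate, was the member with the highest fold change, -0.20 ± 0.22 (adjusted p = 0.622) in males and -0.25 ± 0.12 (adjusted p = 0.141) in females in the authors' deposited tables. Its intervals in percent of control ran from 64.3 to 117% in males and from 71.6 to 99.1% in females. The point values of Ogdh, 59.7% in males and 59.1% in females, were outside both. In males the interval of Ogdh itself, 47.5 to 75.2%, overlapped that of Fh1, and no test between these genes was made. Mdh2, which oxidises malate to oxaloacetate, was called in both sexes, at -0.61 ± 0.17 (adjusted p = 0.00308) and -0.68 ± 0.11 (adjusted p = 6.00e-09) in the authors' deposited tables. Its intervals, 52.1 to 82.3% in males and 54.3 to 72.2% in females, overlapped those of Fh1. Mdh2 and Fh1 were not tested against each other. In males the call of Mdh2 was lost with total-count scaling (adjusted p = 0.0513) and with centring (0.0892).

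**Figure D2:**
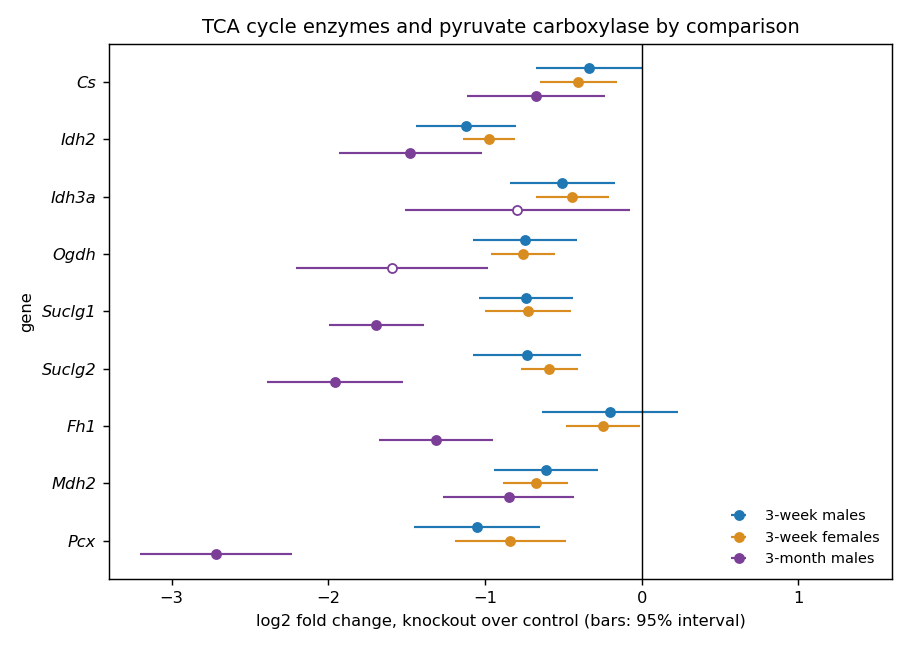
Log2 fold change of knockout over control (x axis) with its 95% interval for each gene (y axis) in the 3 tables; open points have no p-value in the authors' table. At 3 weeks all 18 points lie between -1.12 and -0.20, and at 3 months Pcx reaches -2.71.

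No gene passed a test of the difference between the sexes. The difference of the female and male fold changes at 3 weeks was tested for 13737 genes from the SEs of both tables (2-sided normal test, Benjamini-Hochberg adjustment), and 0% of the genes, 0 in number, passed. At an unadjusted p under 0.05 there were 237 genes, 1.73% of those tested, and 0 of the 9 members. That is a smaller share than this threshold would give without any difference. The difference over its SE had a standard deviation of 0.82, below that of a standard normal. The test was thus conservative, and the lack of calls does not show equal effects. Moderation could also narrow differences between the sexes, and its size was not tested. For Pcx the females were 0.21 above the males on the log2 scale, with a 95% interval from -0.32 to 0.75. Idh2 differed by 0.15, with an interval from -0.21 to 0.51, and Suclg2 by 0.14, from -0.25 to 0.53. The intervals of all 9 genes include 0 and reach up to 0.75 log2 units, so moderate differences between the sexes are within them.

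At 3 months the deposited fold changes of all 9 genes were below those at 3 weeks. With total-count scaling this order turned for Cs (-0.10, against -0.16 and -0.26 in 3-week males and females), Mdh2 (-0.27, against -0.43 and -0.53) and Idh3a (-0.22, against -0.33 and -0.29), and for Idh2 in males (-0.90, against -0.94). All 7 members with a p-value were called lower in the authors' table, where 27.8% of 12828 tested genes were called lower, 29.8% higher and 57.5% either way. The other two, Ogdh and Idh3a, have the status Outlier, which goes with no p-value. The median of the 9 genes was -1.48, beside 0.01 over all tested genes, and the distance from the lowest to the highest member was 2.04 log2 units, against 0.92 and 0.73 in 3-week males and females. Over the 7 members tested in all 3 tables, 5 (Idh2, Suclg1, Suclg2, Mdh2 and Pcx) were called lower in each, as were 3.76% of 11928 genes.

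Pcx had by far the lowest value of the 9 genes at 3 months. The authors' deposited table gave it -2.71 ± 0.25 (adjusted p = 1.46e-26), which is 15.2% of the control level (95% interval 10.9 to 21.3%). Percentages at 3 months come from fold changes that appear less tightly moderated than those at 3 weeks. How far this sets the percentages of both ages apart was not tested. Only 0.608% of the tested genes in that table had a lower fold change. Suclg2 followed at -1.96 ± 0.22 (adjusted p = 2.12e-17) and Suclg1 at -1.69 ± 0.15 (adjusted p = 1.35e-26) in the authors' deposited table, or 25.8% and 30.9% of control. The value of Ogdh was -1.59 ± 0.31 in the authors' deposited table, with no p-value. Idh2, lowest at 3 weeks, stood at -1.48 ± 0.23 (adjusted p = 1.56e-09) in the authors' deposited table, 35.9% of control.

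Fh1, not called at 3 weeks, was called at 3 months. Its fold change in the authors' deposited table was -1.31 ± 0.18 (adjusted p = 9.77e-12), 40.2% of control (95% interval 31.3 to 51.7%). Mdh2 was at -0.85 ± 0.21 (adjusted p = 0.000196), Idh3a at -0.79 ± 0.37 with no p-value and Cs at -0.67 ± 0.22 (adjusted p = 0.00581) in the authors' deposited table. The Cs transcript was thus the member nearest to control at 3 months, at 62.7% of its level. From Pcx upwards the order ran through Suclg2, Suclg1, Ogdh, Idh2, Fh1, Mdh2 and Idh3a to Cs. Of the neighbours in this order, the 95% intervals of Pcx and Suclg2 overlapped, as did those of all later neighbours.

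The change between ages was tested in males, as the difference of the 2 log2 fold changes. Across 12355 genes 27.7% passed, 10.9% lower and 16.8% higher at 3 months than at 3 weeks. Of the 7 members tested, 4 were lower at 3 months and none higher. For Pcx the difference was -1.66 ± 0.32 (SE, adjusted p = 4.67e-06), for Suclg2 -1.23 ± 0.28 (adjusted p = 0.000184), for Fh1 -1.11 ± 0.29 (adjusted p = 0.00106) and for Suclg1 -0.96 ± 0.22 (adjusted p = 0.000151). The remaining 3 did not pass: Idh2 differed by -0.36, with a 95% interval from -0.91 to 0.20, Cs by -0.34, from -0.90 to 0.22, and Mdh2 by -0.24, from -0.77 to 0.29. The sign of these 3 differences depended on the scaling: it was positive with total-count scaling (Idh2 0.044, Cs 0.059, Mdh2 0.160) and with centring (0.137, 0.153 and 0.254), with no call in either. Ogdh and Idh3a differed by -0.85 ± 0.36 and -0.29 ± 0.40 and were not tested, as they lack a p-value at 3 months. The largest SE in a table was 0.44 in 3-week males, 0.42 in 3-week females and 1.10 in 3-month males. Even Ddx3y in females, with a mean count of 0.83, had an SE of only 0.25. SEs this small at so few counts point to fold changes drawn towards 0 (moderated), with a tighter limit at 3 weeks than at 3 months. Such moderation could widen the differences between the ages, and its size was not tested. With the fold changes centred on genes of like abundance, Suclg1 (-0.46, adjusted p = 0.111) and Fh1 (-0.62, adjusted p = 0.106) no longer passed.

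**Figure D3:**
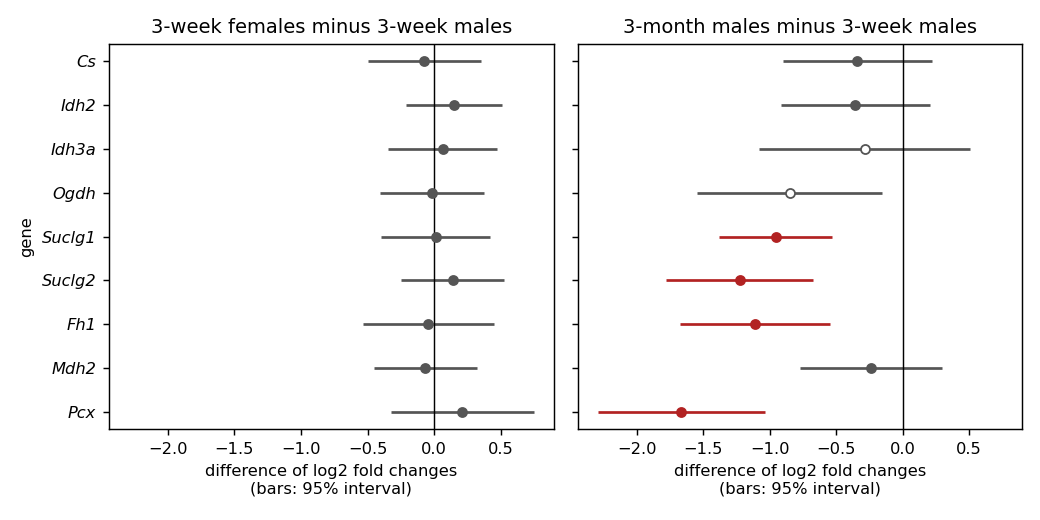
Difference of log2 fold changes (x axis) with its 95% interval for each gene (y axis), between sexes at 3 weeks (left) and between ages in males (right); red points passed at adjusted p under 0.05 and open points were not tested. All 9 intervals on the left include 0, and the 4 red points on the right lie between -1.66 and -0.96.

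A joint test over the 3 tables, which include both tables of males used for the ages, is given as a description of all 3. Heterogeneity of the 3 fold changes (Cochran's Q) passed for Pcx (adjusted p = 3.54e-08), Suclg2 (1.54e-06), Suclg1 (1.76e-05) and Fh1 (2.81e-05), and for 32.5% of 11928 genes. With centring 2 members passed in place of 4. The test did not pass for Idh2 (adjusted p = 0.233), Cs (0.639) or Mdh2 (0.805). For these 3 the inverse-variance mean over the tables was -1.05 ± 0.07 (SE), -0.43 ± 0.09 and -0.69 ± 0.08. The mean of both sexes at 3 weeks was -1.01 ± 0.08 for Idh2, -0.93 ± 0.14 for Pcx, -0.75 ± 0.09 for Ogdh and -0.73 ± 0.10 for Suclg1. It was -0.66 ± 0.09 for Mdh2, -0.62 ± 0.08 for Suclg2, -0.46 ± 0.10 for Idh3a, -0.38 ± 0.10 for Cs and -0.24 ± 0.11 for Fh1.

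The calls among partner subunits and remaining enzymes of the cycle were in the same direction. Of 11 other TCA cycle genes, 7 were called lower in 3-week males and 7 in females, and 8 of the 8 with a p-value were called lower at 3 months, with none higher in any table. Their medians were -0.50, -0.41 and -1.40 over the tested genes. Idh3b and Idh3g, the regulatory subunits that join Idh3a, were at -0.81 ± 0.16 each in 3-week males, at -0.59 ± 0.13 and -0.77 ± 0.13 in females and at -1.41 ± 0.15 and -1.39 ± 0.09 in 3-month males in the authors' deposited tables. All 6 of these values were called, and all lay below those of Idh3a. Sdhd, a membrane anchor of succinate dehydrogenase, was not called at 3 weeks (-0.21 ± 0.15 and -0.17 ± 0.13) and was at -0.88 ± 0.21 (adjusted p = 7.27e-05) at 3 months in the authors' deposited tables, a call that total-count scaling ended (-0.30, adjusted p = 0.188). Ogdhl, a relative of Ogdh with little transcript in kidney (3.64 CPM per kb in 3-week males), had no call in any table, at -0.11 ± 0.19, 0.34 ± 0.22 and -0.57 ± 0.49 in the authors' deposited tables. In 3-week males only 4 of the 11 were called with total-count scaling or after centring. Between the ages 7 of the 8 tested genes of this list were lower at 3 months as deposited, 1 with total-count scaling and 0 after centring.

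Succinyl-CoA synthetase has another β subunit, Sucla2, which makes the enzyme ATP-specific. Sucla2, chosen for this comparison after its values were seen, was at -0.46 ± 0.18 (adjusted p = 0.063) in males of 3 weeks, -0.33 ± 0.12 (adjusted p = 0.031) in females and -1.46 ± 0.18 at 3 months in the authors' deposited tables. Its difference between ages was -1.002 ± 0.25 (adjusted p = 0.000784), beside -1.23 for Suclg2.

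Of 3 cytosolic counterparts, 1 was called lower in each table at 3 weeks and all 3 at 3 months. Mdh1, the cytosolic malate dehydrogenase, was called in every table, at -0.78 ± 0.14, -0.57 ± 0.18 and -1.53 ± 0.21 in the authors' deposited tables. Aco1 (-0.23 ± 0.14 and -0.06 ± 0.16) and Idh1 (-0.42 ± 0.19 and -0.09 ± 0.19) were not called at 3 weeks and were at -1.55 ± 0.26 and -1.14 ± 0.27, both called, at 3 months in the authors' deposited tables. Set beside them, mitochondrial Idh2 was lower than Idh1 in each table, and Mdh2 was higher than Mdh1 in both tables of males, on point values that were not tested against each other.

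Genes of pyruvate entry, which carry pyruvate into mitochondria and convert it to acetyl-CoA, were called lower in 7 of 12 cases in 3-week males, 6 of 12 in females and 10 of 11 at 3 months, with none higher. At 3 months 6 of 11 were called with total-count scaling. Pdk2, a kinase that switches the pyruvate dehydrogenase complex off, was at -0.59 ± 0.22, -0.59 ± 0.17 and -2.05 ± 0.19 in the authors' deposited tables, and called in each. Pdp2, a phosphatase subunit that switches the complex on, was at -1.96 ± 0.25 at 3 months in the authors' deposited table. Pdpr, a regulatory subunit of pyruvate dehydrogenase phosphatase, was at -1.89 ± 0.22 at 3 months in the authors' deposited table. Pdk3, another of these kinases, was at -0.04 ± 0.18, 0.16 ± 0.14 and -1.03 ± 0.23 in the authors' deposited tables, and only the last was called. For Pdp1, the other phosphatase, the authors' deposited tables gave 0.18 ± 0.20 and -0.07 ± 0.15, neither called, and 1.70 ± 0.41 without a p-value at 3 months.

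Of 17 genes of enzymes that feed or drain the cycle, 13 had negative deposited fold changes in 3-week males, 14 in females and 15 at 3 months. At 3 months 9 of the 17 had no p-value. In 3-week males 10 of 17 were called lower, in females 9 of 16 and at 3 months 6 of 8, with 1 higher at 3 months. With total-count scaling 3 of 8 were lower and 1 higher at 3 months. Oxct1, which lets cells use ketone bodies, was at -1.46 ± 0.14 and -1.13 ± 0.14 at 3 weeks, both called, in the authors' deposited tables. Abat, the transaminase of γ-aminobutyrate, was at -0.75 ± 0.17 and -0.62 ± 0.11, both called, in the same comparisons of the authors' deposited tables. Pck1, which takes oxaloacetate on to phosphoenolpyruvate in gluconeogenesis, was at 0.10 ± 0.24 and -0.06 ± 0.17 at 3 weeks, where Pcx was called lower, and at -3.93 ± 0.33 without a p-value at 3 months in the authors' deposited tables. Pck2, its mitochondrial counterpart, was at -0.12 ± 0.20 and -0.44 ± 0.25, neither called, and at 1.06 ± 0.36 without a p-value in the authors' deposited tables. The 1 called higher was Me2, a mitochondrial malic enzyme, at 1.31 ± 0.25 (adjusted p = 4.68e-07) at 3 months in the authors' deposited table.

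Pcx carries biotin, and other biotin enzymes were set beside it. Of 8 genes of biotin enzymes and biotin handling, 4 of 7 tested were called lower in 3-week males, 4 of 7 in females and 2 of 4 at 3 months, where 1 was higher. Mccc1, of leucine breakdown, was at -0.999 ± 0.15 (called), -0.45 ± 0.18 (adjusted p = 0.053) and -2.09 ± 0.42 (no p-value) in the authors' deposited tables. Mccc2, its partner subunit, was at -0.88 ± 0.15 and -0.47 ± 0.12, both called, and at -1.47 ± 0.31 with no p-value in the authors' deposited tables. Pcca, of propionate breakdown, was at -0.80 ± 0.16 and -0.49 ± 0.12, both called, and at -1.998 ± 0.39 with no p-value in the authors' deposited tables. Acaca, the cytosolic acetyl-CoA carboxylase of fatty acid synthesis, was called only in females, at -0.40 ± 0.15 (adjusted p = 0.039), in the authors' deposited tables. Hlcs, the ligase that attaches biotin to these enzymes, was at 0.02 ± 0.22, 0.14 ± 0.22 and 0.60 ± 0.15 in the authors' deposited tables, and called higher at 3 months only.

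The TCA cycle enzymes were set beside other mitochondrial lists. At 3 weeks the medians lay close together, at -0.73 and -0.68 for the 9 genes, -0.64 and -0.57 for 36 tested subunits of respiratory complex I, and -0.58 and -0.61 for subunits of ATP synthase. At 3 months the 9 genes had a median of -1.48, complex I -0.65 and ATP synthase -0.68. From 3 weeks to 3 months in males, 4 of 7 members were lower, against 0 of 35 complex I genes (1 was higher) and 3 of 15 ATP synthase genes. Lower too were 7 of 11 tested genes of pyruvate entry, 2 of 3 cytosolic counterparts and 2 of 3 biotin genes. Of 8 genes that feed or drain the cycle 2 were lower and 2 higher, and of 6 genes for making lipoate 1 was lower. Ndufb9, of complex I, was at -0.76 ± 0.18, -0.74 ± 0.08 and -0.74 ± 0.07, and Atp5a1, of the catalytic head of ATP synthase, at -0.69 ± 0.15, -0.61 ± 0.09 and -1.22 ± 0.15 in the authors' deposited tables. In the list of mitochondrial mass genes (outer membrane channels and receptors, chaperones, proteases and Tfam) 3, 4 and 9 were called lower, of 12, 12 and 11 tested, with 1 higher at 3 months. The medians of that list were -0.30, -0.22 and -0.52. Between the ages 4 of its 11 tested genes were lower and 0 higher. The direction of these lists at 3 months depended on the scaling. With total-count scaling the median was -0.07 for complex I (10 lower and 5 higher of 35), -0.10 for ATP synthase (4 lower and 2 higher of 15) and 0.05 for mitochondrial mass genes (3 lower and 4 higher of 11), beside -0.90 for the 9 genes (5 of 7 lower). After centring the medians were -0.24, -0.12, -0.32 and -0.77. Between the ages, total-count scaling gave 0 lower and 9 higher of 35 complex I genes, 0 lower and 4 higher of 15 ATP synthase genes, and 4 lower and 0 higher of the 7 members. It gave 3 lower and 1 higher of 11 pyruvate entry genes, and 0 lower and 1 higher of 11 mitochondrial mass genes. Of 3 cytosolic counterparts it left 1 lower, and of 3 biotin genes 1 lower and 1 higher. Lists were described by counts and medians, and no test between lists was made.

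**Figure D4:**
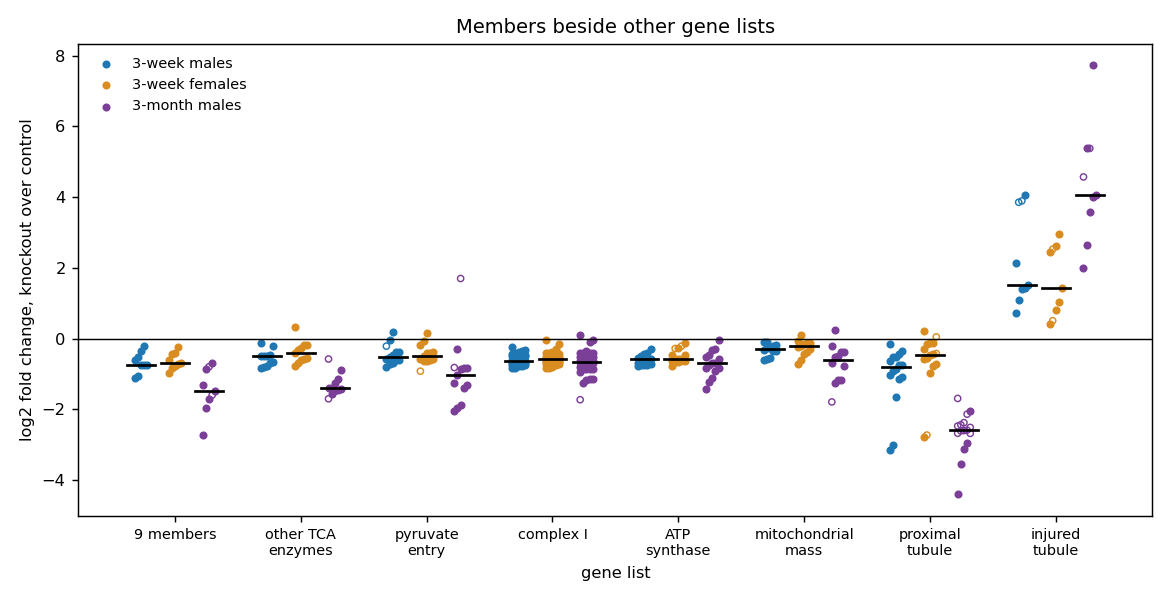
Log2 fold change of knockout over control (y axis) for each gene of 8 lists (x axis), coloured by table; black bars are medians over the genes drawn, and open points have no p-value in the authors' table. At 3 months the medians of the 9 genes and of the other TCA enzymes lie below those of complex I and ATP synthase, proximal tubule markers lie lowest and injured tubule markers highest.

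Markers of kidney cell types moved in the same comparisons. In bulk RNA, fewer cells of a type and less RNA per cell cannot be told apart. Of 16 proximal tubule markers, 13 of 16 tested were called lower in 3-week males, 7 of 12 in females and 5 of 5 at 3 months, with none higher; 11 had no p-value at 3 months. Over the tested and Outlier genes their medians were -0.81, -0.45 and -2.59, and all 16 were negative at 3 months. Slc34a3, a phosphate transporter of proximal tubule, was at -3.00 ± 0.18, -2.77 ± 0.23 and -4.39 ± 0.18 in the authors' deposited tables. Thick ascending limb markers were called lower in 7 of 8, 7 of 8 and 1 of 1 cases. At 3 months 8 of these 9 markers had no p-value, and 7 of 9 were negative. Their medians over the tested and Outlier genes were -1.08, -1.20 and -0.96. Injured tubule markers went the other way, with 7 of 7, 6 of 7 and 7 of 7 called higher and medians over the tested genes of 1.42, 1.44 and 4.02. Immune cell markers were called higher in 10 of 12, 9 of 12 and 11 of 11 cases, with medians of 1.39, 0.93 and 3.63. The injury marker Lcn2 reached 7.73 ± 0.25 at 3 months in the authors' deposited table. Calls in the other lists, for 3-week males, 3-week females and 3-month males in turn, were as follows. Distal convoluted and connecting tubule markers were called lower in 6 of 9, 6 of 8 and 3 of 3 cases, with 1, 1 and 0 higher. At 3 months 6 of these 9 markers had no p-value, and 8 of 9 were negative. Intercalated cell markers were called lower in 5 of 6, 4 of 5 and 0 of 1 cases. Of these 8 markers, 7 had no p-value at 3 months, and 7 of 8 were negative there. Podocyte markers were called lower in 3 of 6, 1 of 6 and 3 of 5 (1 higher at 3 months). Endothelial markers were called lower in 4 of 8, 8 of 8 and 2 of 5 (1 higher at 3 months). With total-count scaling podocyte markers were called lower in 0, 1 and 1 cases and higher in 1, 0 and 2. Endothelial markers were then called lower in 3, 8 and 0 cases and higher in 0, 0 and 2. With Outlier genes included, 3 of 8 endothelial markers were negative at 3 months as deposited, with a median of 0.25. Principal cell markers were called higher in 2 of 5, 0 of 1 and 3 of 4, and fibroblast markers in 1 of 2, 4 of 7 (1 lower) and 4 of 4. Urothelial and fat cell markers had 1 or no tested gene in a table, and the 1 tested at 3 months was called higher in each list. No marker in any list was at 0. The summed mean level of the proximal tubule list was 36811, 37513 and 43800 CPM, and that of the immune list 406, 364 and 999, over both genotypes. The part of these shifts in the fall of the 9 genes was not tested.

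Scaling changed the size of the fold changes and some calls. Scaling to total counts, as implied by the means and fold changes of a table, adds 0.18, 0.15 and 0.58 to every log2 fold change in 3-week males, females and 3-month males. The share of calls higher in the knockout then went from 50.8% to 75.2%, from 44.2% to 74.0% and from 51.7% to 87.0%. Calls either way then made up 19.3%, 23.4% and 68.8% of the tested genes. With total-count scaling the median of the 9 genes was -0.55, -0.53 and -0.90, and 5, 6 and 5 members were called lower. Idh2, Ogdh, Suclg1, Suclg2 and Pcx were called in 3-week males and females under every scaling tried. At 3 months Cs (-0.10, adjusted p = 0.713) and Mdh2 (-0.27, adjusted p = 0.248) lost their calls with total-count scaling, and Fh1 (-0.74) did not. Among the other named genes of the pathway, total-count scaling also ended the calls of Mdh1, Sucla2 and Acaca in 3-week females (adjusted p = 0.0689, 0.273 and 0.216), of Pdk2 in 3-week males (0.194), and of Idh1 and Pdk3 at 3 months (0.0585 and 0.0684).

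**Figure D5:**
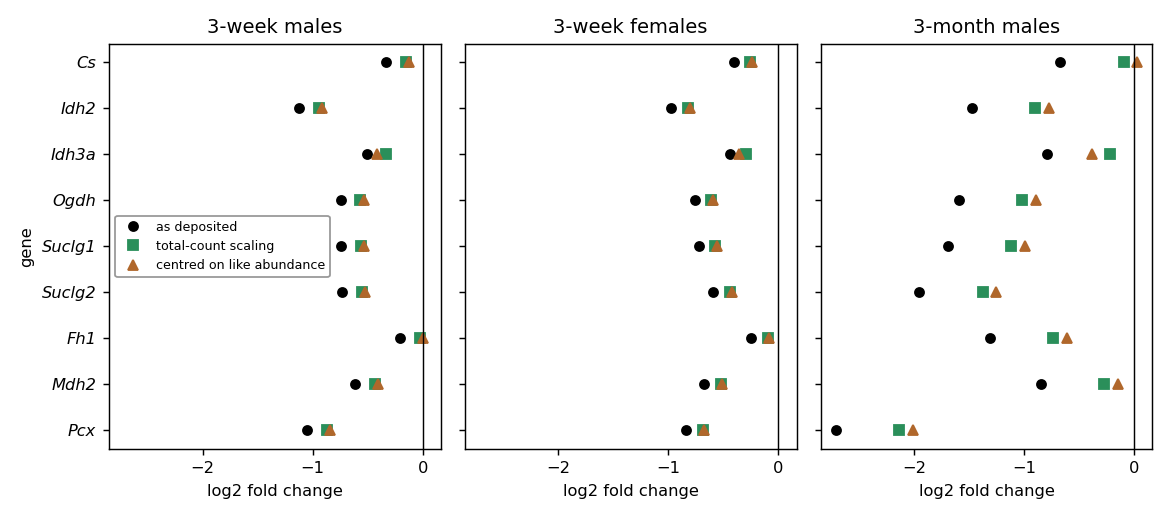
Log2 fold change (x axis) of each gene (y axis) in the 3 tables as deposited, with total-count scaling and after centring on tested genes of like abundance. Pcx stays farthest below 0 at 3 months, and Cs comes to lie near 0.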

How the data were processed

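Polyadenylated kidney RNA was sequenced from stranded TruSeq libraries, per the labels' protocols. The submitters' processing notes name mm10, STAR, HOMER and DESeq2, and the sources used here give neither versions nor settings. The authors' 3 deposited tables hold, per the file headers, a mean of normalised counts (a signal), the log2 fold change and its SE, p-values before and after adjustment, and a status. Each p-value equalled the normal p of fold change over SE. Libraries are numbered without repeats, and whether littermates were paired is not recorded. Thus p-values reflect only how far those libraries spread, which may be technical.

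From these values, differences between tables and Cochran's Q were computed with numpy 2.4.6 and scipy 1.17.1. Their p-values were adjusted over all genes with an adjusted p in the tables used, and the tests were tried on simulated data. The simulation drew normal errors from the deposited SEs without moderation. It thus checks the arithmetic and not the error rate with moderated values. Symbols turned into dates, 27 in each table, were left out. Fold change, SE and call were kept as deposited, and edgeR could not be run without counts per library. Members, lists and tests were chosen with earlier results of these data known. Named genes are the 9 members, lists of 5 or fewer in full, otherwise the 3 lowest and 2 highest by mean fold change with a p in at least 2 tables, 2 per comparison or marker list, and the 5 genes nearest in pattern. A gene that this rule names is not reported here. Sequences are from RefSeq. Alternatives were another adjustment, total-count scaling, centring in 20 abundance bins, a threshold of 0.01, SEs multiplied by 1.25 and, added after seeing the data, Outlier genes kept and both scalings applied to every list.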

Additional observations from a re-analysis of the deposited data

Results flagged for a closer look

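In 4 genes the effect of the knockout differed between the ages by a test of the difference itself, adjusted over 12355 genes. The log2 fold change in 3-month males minus that in 3-week males was -1.66 for Pcx, -1.23 for Suclg2, -1.11 for Fh1 and -0.96 for Suclg1. With fold changes centred on genes of like abundance, Suclg1 (-0.46, adjusted p = 0.111) and Fh1 (-0.62, adjusted p = 0.106) did not pass. For Fh1 the values on either side were -0.20 and -1.31, so a gene with no call at 3 weeks had a called fall at 3 months. Among all genes 27.7% passed the same test. The deposited fold changes appear moderated towards 0 more tightly at 3 weeks, and how far this enters the differences was not tested.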

How the results depend on the processing

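Under the alternatives, 38 recomputed counts stayed within 1.5 times of the reported count and 4 did not. Of the values of single genes, 202 kept their direction and side of the threshold, 14 lost the call in the same direction, 1 gained it and 10 changed sign. Calls were lost, under one or more alternatives, for Idh3a and Mdh2 in 3-week males, Cs and Idh3a in 3-week females, Cs and Mdh2 in 3-month males, and Suclg1 and Fh1 between the ages. With total-count scaling and with centring, 4 other TCA cycle genes were called lower in 3-week males, each time in place of 7. With centring, 2 members (Pcx and Suclg2) in place of 4 differed between the ages, and 2 in place of 4 were heterogeneous over the tables. Centring turned Fh1 to 0.0048 (adjusted p = 0.994) in 3-week males, where it had no call, and Cs to 0.028 (adjusted p = 0.927) at 3 months, where it had one. Without a call under any setting, the differences between the ages changed sign with total-count scaling and centring for Cs (0.059 and 0.153), Idh2 (0.044 and 0.137) and Mdh2 (0.160 and 0.254), as did that of Suclg1 between the sexes (-0.016 and -0.031). Kept in the adjustment, the Outlier gene Ogdh passed at 3 months (adjusted p = 1.51e-06). The cause of these changes was not tested. The share of promoters with the extended ERR motif was 0.241% on the gene's strand alone and 0.116% in the last 100 bases before the start. Leaving out single libraries needs values per library and was not done. No paired analysis was possible because the library numbers do not repeat across groups and the tables hold no value per library. The lowest mean count of a member was 2828 (Idh3a, 3 months), and how depth and the number of libraries set the SEs was not tested.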

Other observations

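Genes for making lipoate, the cofactor that Dlst and the pyruvate dehydrogenase complex carry, were called lower in 1 of 6 cases in 3-week males, 2 of 6 in females and 5 of 6 at 3 months, where total-count scaling left 1 of 6. Oxsm, of mitochondrial fatty acid synthesis, was at -0.42 ± 0.20, -0.16 ± 0.15 and -1.71 ± 0.30, and Lipt2, a lipoyl transferase, at -0.11 ± 0.28, 0.06 ± 0.30 and -0.08 ± 0.34 in the authors' deposited tables. Of 4 assembly factors of succinate dehydrogenase, none was called at 3 weeks and 1, Sdhaf1, was called lower at 3 months, at -0.41 ± 0.13 in the authors' deposited table. Its sign turned with total-count scaling (0.17, adjusted p = 0.240).

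Among 3227 genes outside the lists with at least 50 CPM in each table, the 5 whose 3 fold changes lay nearest to the medians of the 9 genes (Euclidean distance on the log2 scale) were Acads, Dcxr, Clybl, Akr7a5 and Asl, at distances from 0.127 to 0.175. Acads, the short-chain acyl-CoA dehydrogenase of fatty acid oxidation, was at -0.82, -0.63 and -1.56 in the authors' deposited tables. Asl, whose reaction releases fumarate, was at -0.89, -0.61 and -1.50 in the authors' deposited tables. Likeness rests on 3 comparisons and is given as a description.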
